A study of Mus musculus with 18 samples.

Results

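The 6 genes described here, Kirrel2, Kirrel3, Pcdh10, Cntn4, Ncam1 and Ncam2, encode adhesion molecules of olfactory sensory neurons (OSNs), and they were taken by symbol from the 23359 gene symbols of an expression table in TPM, a transcript abundance scaled for gene length and for the library's total. All 6 passed the filter on low values, at least 1 TPM in at least 7 of 16 libraries. The study sorted cells of the main olfactory epithelium (MOE) by fluorescence and sequenced their RNA to check that neurons with trace amine-associated receptors (TAARs) had been enriched. Strain and ages are given here as labelled (C57BL/6), while the study's own animal list gives a mixed strain background and adult mice for these lines. In the Taar5 line (genotype TAAR5-Cre&L10-GFP, postnatal day 11 to 14), 7 libraries came from GFP-positive cells, called Taar5+, and 9 from GFP-negative cells, called controls. In the Taar6 line (TAAR6-Cre&ZsGreen, postnatal day 16 to 17), there was 1 library of ZsGreen-positive cells, called Taar6+, and 1 of ZsGreen-negative cells. All 18 libraries therefore came from mice that carry a knockin Cre allele and a reporter. Cre is made from the Taar5 or Taar6 transcript, so the reporter marks cells that had switched on that gene, whichever receptor they used later. The controls are every other cell of the dissociated tissue, mostly OSNs with odorant receptors (ORs). In such bulk libraries, fewer cells that express a gene and less RNA of it per cell cannot be told apart.

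Each OSN sends 1 axon to the olfactory bulb, where axons of neurons with the same receptor gather into glomeruli. Adhesion molecules that bind their own kind on neighbouring axons are thought to sort these axons locally, and several of them follow the neuron's own activity. Kirrel2 is known to rise and Kirrel3 to fall with activity through the cyclic nucleotide-gated channel, so that axons with much of one often carry little of the other. The axons of TAAR neurons end in a few glomeruli grouped in the dorsal part of the bulb.

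A pair of Taar5-line libraries stood apart and bears on every result. Control replicate 2 had 5939 rows with a value above 0, while the remaining Taar5-line controls had 11352 to 17015. Of 3204 genes that are abundant elsewhere (median 50 TPM or more), 639 had a listed 0 in this library, and no other library had more than 47 such genes. Taar5+ replicate 5 had a summed OR level of 5525 TPM and a summed Taar level of 1517 TPM. The other 6 Taar5+ libraries had 225 to 1999 TPM of OR and 4542 to 7804 TPM of Taar genes. The controls had 13477 to 20251 TPM of OR genes, apart from replicate 2 with 6174 TPM. Mature OSN markers (Omp, Gnal, Cnga2, Cngb1 and Adcy3) summed to 12747 to 23824 TPM in Taar5+ and 4994 to 25429 TPM in controls, and no marker was at 0. Read counts are not given, so the depth behind each value is unknown.

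Of the 6 genes, 0 passed the test in the comparison of the 7 Taar5+ with the 9 control libraries (limma, Benjamini-Hochberg adjusted over all genes). The same test called 21 of 12502 genes, or 0.168%. At an unadjusted p under 0.05 it listed 1 of the 6, Kirrel3, and 881 of all genes, or 7.05%. The median log2 fold change was 0.07 over the 6 genes and 0.02 over all genes. Without the pair of libraries that stood apart, Kirrel3 passed and was lower in Taar5+, while the other 5 genes did not pass and had log2 fold changes from −0.30 to 0.02. That fit called 337 of 11915 genes, or 2.83%, and 2.42% of all genes were called with lower values in Taar5+. The pair was left out only after the Kirrel3 values were known.

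**Figure D1:**
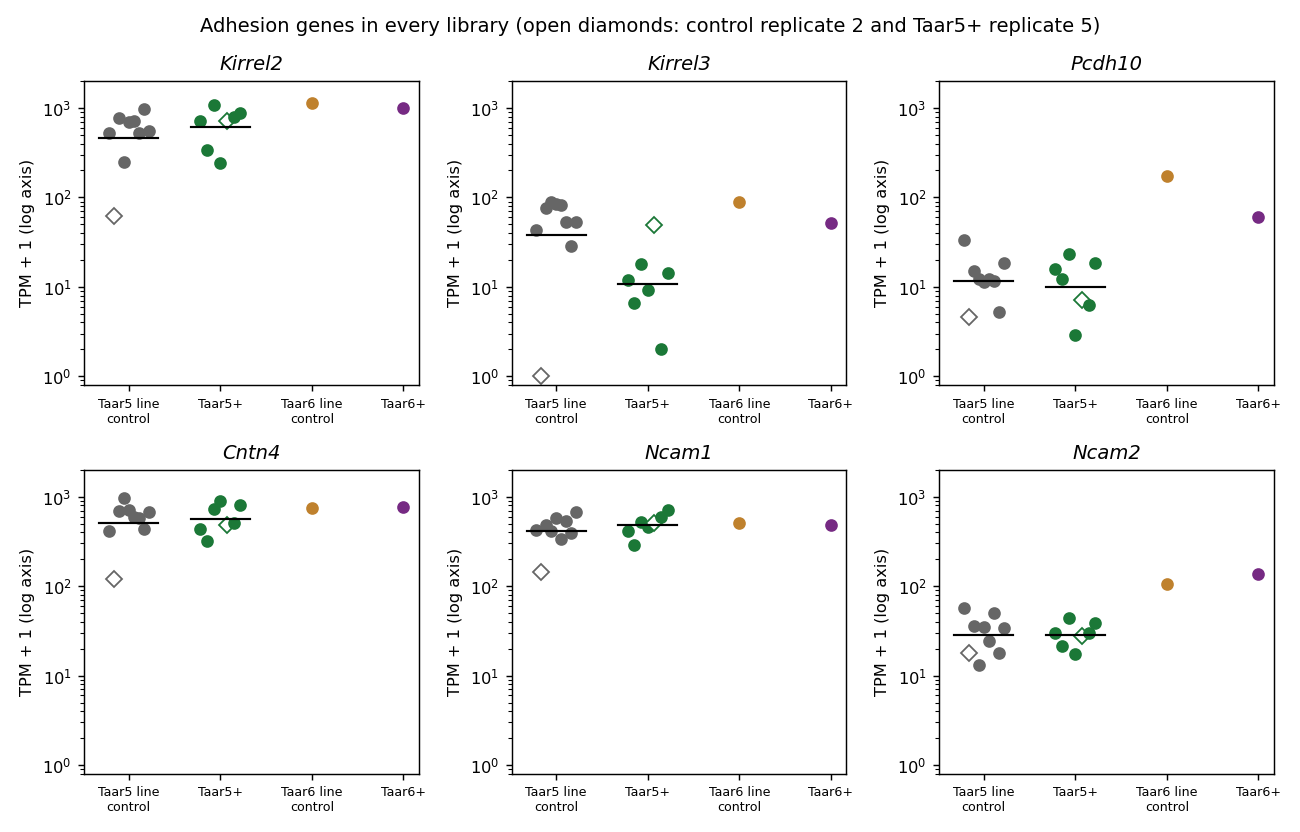
TPM + 1 on a log axis of each of the 6 genes in 18 libraries, grouped by sorted population, with a line at the mean of the log values where a group has more than 1 library. Open diamonds mark control replicate 2 and Taar5+ replicate 5, and Kirrel3 is the panel in which the filled points of the Taar5+ libraries (1.04 to 17 TPM) and the controls (27.5 to 87.6 TPM) do not overlap.

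Kirrel3, an immunoglobulin superfamily protein whose copies bind each other across axons, lies on chromosome 9 (GRCm38, 34485894 to 35036716, plus strand). Kirrel3os and Gm26662 lie within it on the other strand and have no row of their own, and the libraries do not mark strand. In the controls of replicates 1 to 9 the Kirrel3 level was 42.2, 0, 75.0, 87.6, 83.4, 80.7, 51.7, 27.5 and 52.7 TPM. In the Taar5+ libraries of replicates 1 to 7 the level was 11.0, 5.56, 17, 8.26, 47.9, 1.04 and 13.1 TPM. The groups overlapped in these 16 libraries, as they did for the other 5 genes. Among all genes tested, 0.04% had groups that did not overlap and were lower in Taar5+, and 0.104% were higher. For Kirrel3, 6 of 7 Taar5+ libraries lay below 8 of 9 controls, and the exceptions were Taar5+ replicate 5 and control replicate 2, where Kirrel3 was listed at 0.

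Over all 16 libraries the log2 fold change of Kirrel3 on the log2(TPM + 1) scale was −1.80 (SE 0.83, 95% confidence interval −3.52 to −0.07). Its adjusted p by limma was 0.668 and its unadjusted p 0.0422. With control replicate 2 left out the log2 fold change was −2.45 (SE 0.50, limma adjusted p = 0.0208), and with only Taar5+ replicate 5 left out it was −2.16 (SE 0.84, limma adjusted p = 0.364). These 2 fits called 148 of 12460 and 66 of 11968 genes, respectively. With both libraries left out the log2 fold change was −2.81 (SE 0.44, 95% confidence interval −3.75 to −1.88, limma adjusted p = 0.00154). The mean level was then 9.32 ± 5.65 TPM (SD, n = 6) in Taar5+ against 62.6 ± 22 TPM (SD, n = 8) in controls. That fit called 337 of 11915 genes, or 2.83%, and 288 of them, or 2.42%, were lower. The median over all its genes was −0.22. Kirrel3 ranked 45th by p in it. The share of genes whose groups did not overlap and were lower in Taar5+ was 0.792% in the same libraries. The removal of these libraries was chosen after their Kirrel3 values were known.

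Markers of some other cell types differed between the groups as well. Horizontal basal cell markers (Krt5, Krt14 and Trp63) summed to 181 TPM in Taar5+ replicate 5, with a median of 5.01 TPM over the 7 Taar5+ libraries and 98 TPM over the controls. Control replicate 2 had 0 TPM of these markers. Without the pair of libraries all 3 passed the test and were lower in Taar5+, and so did all 3 ventral zone genes Nfia, Nfib and Nfix and 2 of 4 blood and immune markers. In that fit the progenitor marker Top2a (−2.60, limma adjusted p = 0.0430), 1 of 2 tested, also passed. So did the microvillar cell marker Ascl3 (−4.25, limma adjusted p = 0.00989), the 1 tested there. Of 3 tested ensheathing glia markers, 0 passed. Neuronal progenitor markers had a median of 3.30 TPM in Taar5+ (range 0.628 to 120, with the highest in replicate 5). In controls their median was 62.0 TPM (range 0 to 114, with replicates 2 and 8 at 0). Each of the basal, progenitor and blood markers was at 0 in some Taar5+ library. The same held in some control for all 3 basal, all 5 progenitor and 3 of 4 blood markers. Blood and immune markers summed to 0 to 333 TPM in Taar5+ and 81.1 to 654 TPM in controls. Sustentacular markers had a median of 584 TPM in Taar5+ and 1225 TPM in controls, with the highest value of each group in the libraries that stood apart, and 0 of their 4 genes passed in either fit. Microvillar cell markers summed to 0.266 to 175 TPM in Taar5+ and 12.6 to 608 TPM in controls, and ensheathing glia markers to 18.4 to 174 TPM and 30.8 to 157 TPM. Immature OSN markers ranged from 1526 to 2608 TPM and from 782 to 4490 TPM, respectively, and 0 of 5 passed in either fit. The part of these cells in the Kirrel3 difference was not tested.

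Kirrel3 was also set against the summed OR level of the same libraries, a relation chosen after the data had been seen. Within the 7 Taar5+ libraries Pearson's r was 0.388 (exact permutation p = 0.387, adjusted p = 0.580) and Spearman's rho 0.25 (exact permutation p = 0.595). Without replicates 5 and 6, the farthest from the Kirrel3 median, r was 0.188. Within the 9 controls r was 0.950 (exact permutation p = 0.0123, adjusted over 12 relations 0.0918) and rho 0.700 (exact permutation p = 0.0433, adjusted 0.519). Without control replicates 2 and 8, r was 0.689. The relation was not particular to Kirrel3. In the controls Cntn4 had r = 0.915 (exact permutation p = 0.0153, adjusted 0.0918), and r was −0.16 without replicates 2 and 4. Kirrel2 had r = 0.765, Ncam1 0.732, Pcdh10 0.477 and Ncam2 0.114 there. None of the 12 relations, of 6 genes in each group, passed after adjustment.

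**Figure D2:**
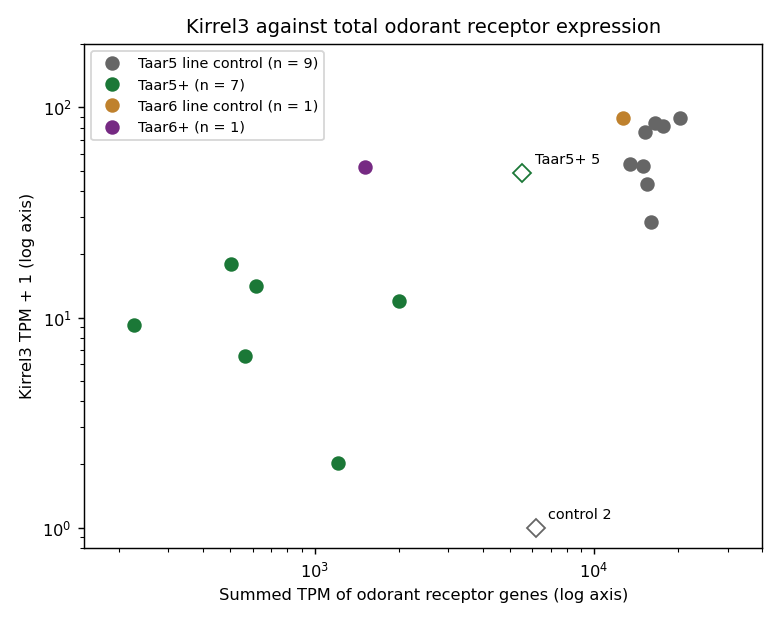
Kirrel3 TPM + 1 against the summed TPM of OR genes in each of 18 libraries, both on log axes, with open diamonds for control replicate 2 and Taar5+ replicate 5. Taar5+ replicate 5 has both the highest OR sum of its group (5525 TPM) and the highest Kirrel3 level (47.9 TPM), and control replicate 2 the lowest OR sum of the controls (6174 TPM) with Kirrel3 listed at 0.

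Kirrel2, the relative of Kirrel3 that follows activity in the opposite direction, was among the most abundant of the 6 genes. It lies on chromosome 7 (GRCm38, 30447534 to 30457690, minus strand), 0.63 kb from Nphs1, which is read in the other direction and encodes the related protein nephrin. The 250 bases before its RefSeq start, chr7:30457516-30457765 on the minus strand of GRCm38.p6, are shown with those of Pcdh10, chr3:45378148-45378397 on the plus strand, because both genes begin beside a neighbour read the other way. GENCODE's boundary of Kirrel2 reaches into its window. Capitals mark TGACG or its reverse complement, the core of the element bound by cyclic AMP response factors, which 17.8% of all 32851 windows hold.
Kirrel2: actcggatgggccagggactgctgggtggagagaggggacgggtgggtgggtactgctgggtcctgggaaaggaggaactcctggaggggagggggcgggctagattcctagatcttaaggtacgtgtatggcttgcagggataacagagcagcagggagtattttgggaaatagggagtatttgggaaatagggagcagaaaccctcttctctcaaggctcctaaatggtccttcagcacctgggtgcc
Pcdh10: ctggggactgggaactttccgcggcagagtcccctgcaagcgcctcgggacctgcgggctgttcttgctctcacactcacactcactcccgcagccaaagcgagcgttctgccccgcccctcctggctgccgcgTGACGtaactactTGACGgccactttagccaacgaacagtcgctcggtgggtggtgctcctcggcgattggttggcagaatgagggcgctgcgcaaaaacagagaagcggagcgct
The Pcdh10 window held these letters 2 times and the Kirrel2 window 0 times. Windows were given for 4 of the 6 genes, and those of Cntn4 and Ncam2 held them 0 times.

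The level of Kirrel2 in Taar5+ was 243 TPM at the lowest, 720 TPM at the median and 1081 TPM at the highest. In controls it was 60.7, 545 and 968 TPM, respectively. The lowest control was replicate 2, and the ranges overlapped over most of their length. The mean was 682 ± 296 TPM (SD, n = 7) against 562 ± 275 TPM (SD, n = 9). The log2 fold change was 0.42 (SE 0.47, 95% confidence interval −0.55 to 1.40, limma adjusted p = 0.955). Without the pair of libraries it was 0.02 (SE 0.33, 95% confidence interval −0.67 to 0.71). The neighbour Nphs1 had 0.248 to 8.14 TPM in Taar5+ and 0 to 5.48 TPM in controls, and Kirrel, the remaining gene of the Kirrel family, 0.481 to 17.3 TPM and 0 to 9.47 TPM.

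The ratio of Kirrel2 to Kirrel3 had a median of 63.7 in Taar5+ (range 15 to 764, n = 7). In the 8 controls with Kirrel3 above 0 the median was 10.1 (range 2.81 to 35.2). The lowest Taar5+ ratio was that of replicate 5. Kirrel3 made up a median of 0.565% of the summed TPM of the 6 genes in Taar5+ and 2.98% in controls. The Kirrel2 share had a median of 40.1% and 33.2%, respectively. No test was run on these ratios, which carry the Kirrel3 difference already given.

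Across libraries of 1 group, no inverse relation of Kirrel2 with Kirrel3 passed a test. In Taar5+ r was 0.205 (exact permutation p = 0.629) and rho 0.429 (exact permutation p = 0.354), and r was −0.0043 without replicates 2 and 4. In the controls r was 0.810 (exact permutation p = 0.0949) and rho 0.10 (exact permutation p = 0.810), and r was −0.14 without replicates 2 and 4. Since a library mixes many cells, such values say nothing of the levels in single axons.

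**Figure D3:**
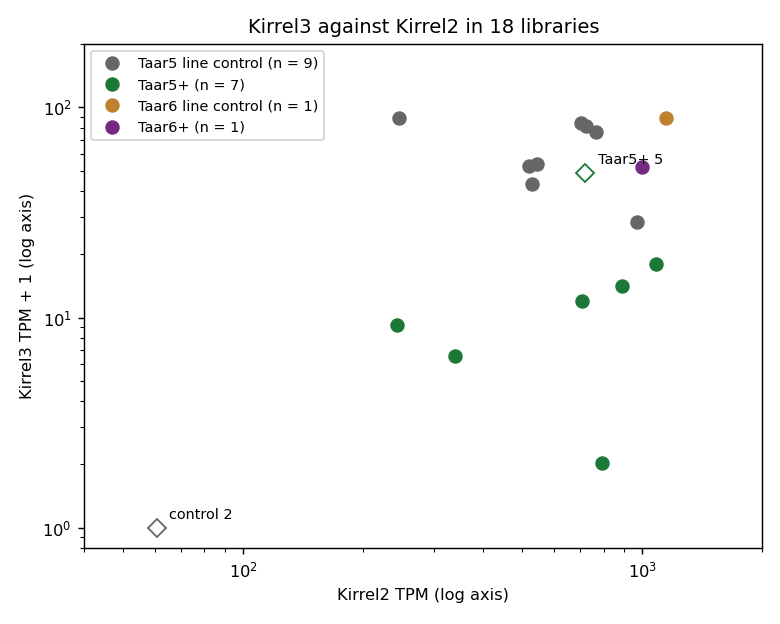
Kirrel3 TPM + 1 against Kirrel2 TPM in each of 18 libraries, both on log axes, colored by sorted population, with open diamonds for control replicate 2 and Taar5+ replicate 5. At Kirrel2 levels of 243 to 1081 TPM, 6 Taar5+ libraries sit at 1.04 to 17 TPM of Kirrel3, below 8 controls at 27.5 to 87.6 TPM.

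Of 30 relations, each between a pair of the 6 genes in 1 group, 2 passed after adjustment of Pearson's p. Kirrel2 and Ncam2 varied together in Taar5+ (r = 0.958, exact permutation p = 0.000595, adjusted 0.0103; rho = 0.964, exact permutation p = 0.00278, adjusted 0.0417). Without replicates 2 and 4, r was 0.947. In the controls the same genes had r = 0.425 (exact permutation p = 0.263), and r was −0.87 without replicates 2 and 4. The difference between the groups was not tested. Kirrel3 and Cntn4 varied together in the controls (r = 0.965, exact permutation p = 0.000683, adjusted 0.0103; rho = 0.933, exact permutation p = 0.000750, adjusted 0.0225). Without control replicates 2 and 8, r was 0.776. In Taar5+ this pair had r = 0.164 (exact permutation p = 0.753). The value of r was positive in 14 of 15 pairs in Taar5+ and in 15 of 15 pairs in the controls. Many of the control signs turned without the 2 libraries farthest from the first gene's median, which always included replicate 2. Kirrel3 with Ncam2 went from 0.308 to −0.775 and Kirrel2 with Pcdh10 from 0.391 to −0.758. Other pairs stayed positive, such as Pcdh10 with Cntn4 (0.507 and 0.646). All libraries of a group share the TPM scale, and its part in these signs was not tested.

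Pcdh10, a non-clustered protocadherin whose copies bind each other and which marks a subset of glomeruli, was the lowest of the 6 genes in the controls. It lies on chromosome 3 (GRCm38, 45378398 to 45435623, plus strand). In Taar5+ its level was 14.7, 11.3, 22.2, 1.87, 6.07, 5.32 and 17.6 TPM in replicates 1 to 7. In the controls the lowest level was 3.65 TPM (replicate 2), the median 11.2 TPM and the highest 32.3 TPM. The groups overlapped, with only Taar5+ replicate 4 below every control. The log2 fold change was −0.22 (SE 0.54, 95% confidence interval −1.35 to 0.91, limma adjusted p = 0.980). An antisense gene, 1700027H10Rik, overlaps its end, and the Smart-seq2 libraries do not mark strand, so reads of both cannot be told apart there. The divergent neighbour 2610316D01Rik, 138 bases before Pcdh10, had 0 to 4.8 TPM in Taar5+ and 0 to 4.81 TPM in controls.

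Cntn4, a contactin anchored to the axon membrane by a lipid and present in a mosaic of glomeruli, lies on chromosome 6 (GRCm38, 105677660 to 106699310, plus strand). Its lowest, median and highest levels were 320, 504 and 903 TPM in Taar5+. Those of the controls were 118, 595 and 954 TPM. The ranges nearly coincided, and control replicate 2 was again the lowest. The mean was 596 ± 215 TPM (SD, n = 7) against 574 ± 235 TPM (SD, n = 9), with a log2 fold change of 0.14 (SE 0.34, 95% confidence interval −0.56 to 0.85, limma adjusted p = 0.979). It was far above the other contactins on the same per-length scale. Cntn1 had a median of 1.5 TPM in Taar5+ and 5.62 TPM in controls, while the medians of Cntn3, Cntn5 and Cntn6 were 0 in both groups.

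Ncam1, the neural cell adhesion molecule found on nearly all OSN axons, lies on chromosome 9 (GRCm38, 49502136 to 49798925, minus strand). Its median level was 512 TPM in Taar5+ (range 287 to 705) and 425 TPM in controls (range 144 to 669), and the ranges overlapped. The mean was 496 ± 132 TPM (SD, n = 7) against 441 ± 151 TPM (SD, n = 9), and the log2 fold change was 0.23 (SE 0.26, 95% confidence interval −0.32 to 0.78, limma adjusted p = 0.956). This was the narrowest interval of the 6 genes. The enzymes that add polysialic acid to Ncam1 were low: St8sia2 reached at most 5.16 TPM in Taar5+ and 8.57 TPM in controls, and St8sia4 had a median of 0 in both groups. An antisense gene, Gm11149, overlaps Ncam1.

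Ncam2, also called OCAM, is known for its strong expression in neurons of the ventral zones of the epithelium, and lies on chromosome 16 (GRCm38, 81200697 to 81626828, plus strand). It had 29.0, 20.3, 42.8, 16.3, 26.5, 29.0 and 38.0 TPM in the Taar5+ libraries of replicates 1 to 7. The controls had a median of 33.4 TPM (range 12.0 to 55.7) and held every Taar5+ value within their range. The log2 fold change was 0.0025 (SE 0.37, 95% confidence interval −0.78 to 0.79, limma adjusted p = 0.999), so that a change of more than 0.79 in either direction lay outside the interval.

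Other zone genes of the same libraries gave other values. The ventral zone genes Nfia, Nfib and Nfix had log2 fold changes of −1.30, −1.77 and −2.56, of which 0 passed over 16 libraries (limma adjusted p = 0.418, 0.304 and 0.0728). The dorsal zone genes Nqo1 and Acsm4 both passed, in opposite directions. Nqo1 was −2.48 (SE 0.31, limma adjusted p = 0.000312) and Acsm4 was 1.53 (SE 0.26, limma adjusted p = 0.00994). The difference between Ncam2 and these genes was not tested.

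On the per-length TPM scale the 6 genes fell into a high and a low set in the Taar5 line. Kirrel2, Cntn4 and Ncam1 were the high set and did not separate from each other. In Taar5+ Kirrel2 exceeded Cntn4 in 6 of 7 libraries and Cntn4 exceeded Ncam1 in 5 of 7. In the controls Cntn4 exceeded Kirrel2 in 5 of 9 and Kirrel2 exceeded Ncam1 in 5 of 9. In Taar5+ the ranges of Ncam1 and of Ncam2, the next gene in order, did not overlap, and in controls those of Ncam1 and Kirrel3, the next there, did not. The control ranges of Kirrel2 and Kirrel3 did overlap. The lowest Kirrel2 level, 60.7 TPM in control replicate 2, lay below the highest Kirrel3 level, 87.6 TPM in control replicate 4. Within the low set the order changed. Kirrel3 exceeded Ncam2 in 7 of 9 controls, while Ncam2 exceeded Kirrel3 in 6 of 7 Taar5+ libraries.

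In the Taar6 line each population was a single library, so there is no replicate check and no p-value. Both had low values of housekeeping genes, with Gapdh at 1.43 TPM in Taar6+ and 6.06 TPM in its control and Ppia listed at 0 in both, while Gapdh was 436 to 1222 TPM in the Taar5 line. Kirrel3 was 50.9 TPM in Taar6+ and 87.7 TPM in its control, a log2 difference of −0.77, which did not reach 2-fold. Pcdh10 was 58.9 TPM against 172 TPM, a log2 difference of −1.53, and was the 1 gene of the 6 beyond 2-fold. Of 15189 genes, 18.7% were beyond 2-fold and 13.8% were beyond it with lower values in Taar6+. The Pcdh10 levels of both libraries lay above the highest Taar5-line value of 32.3 TPM. Ncam2 was 136 TPM against 105 TPM and also lay above its Taar5-line range. Such high values were not particular to these genes. Kirrel was 123 TPM in Taar6+ and 85.5 TPM in its control, against at most 17.3 TPM in the Taar5 line. App was 1576 and 1708 TPM, respectively, against at most 750 TPM. Cntn4 and Ncam1 lay within their Taar5-line ranges. Kirrel2 (999 against 1146 TPM), Cntn4 (759 against 738 TPM) and Ncam1 (487 against 502 TPM) had log2 differences of −0.20, 0.042 and −0.042. Line, age, reporter and the low housekeeping values differ together between the lines and cannot be told apart.

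The wider set of related genes was taken from 5 lists with 77 genes, of which 74 were in the table and 58 passed the filter. Over 16 libraries limma called 0 of the 58. At an unadjusted p under 0.05 there were 1 higher and 6 lower, beside 1.67% higher and 5.38% lower among all genes. Their median log2 fold change was 0.09. Without the pair of libraries 3 of 57 passed, all lower, beside 2.42% of all genes. Their median was then −0.21, against −0.22 over all genes.

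The list of ephrin and semaphorin genes of the glomerular map held 2 of these 3. Sema3a, a repulsive secreted guidance cue, had a median of 0.666 TPM in Taar5+ (range 0 to 7.20) and 7.46 TPM in controls (range 3.16 to 16.4). Its log2 fold change was −1.96 (SE 0.53, limma adjusted p = 0.214) over 16 libraries and −2.38 (SE 0.50, limma adjusted p = 0.0111) without the pair. Efna5, the ephrin ligand known to fall with activity like Kirrel3, had a median of 27.1 TPM in Taar5+ and 57.8 TPM in controls, with 51.6 TPM in Taar5+ replicate 5 and a listed 0 in control replicate 2. Its log2 fold change was −0.51 (SE 0.72, limma adjusted p = 0.959) over 16 libraries and −1.32 (SE 0.26, limma adjusted p = 0.00740) without the pair, and 6 of 7 Taar5+ libraries lay below the 8 other controls. Epha5, the receptor known to rise with activity like Kirrel2, had medians of 24.3 and 24.5 TPM and did not pass in either fit (log2 fold changes of 0.41 and −0.092). Nrp2, a semaphorin receptor, was −1.41 (unadjusted p by limma 0.0480), and Slit1 was 0.67 without passing.

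Among 11 tested protocadherins and cadherins, Pcdh11x was the third gene. Its log2 fold change was −1.70 (limma adjusted p = 0.375) over 16 libraries and −2.28 (SE 0.50, limma adjusted p = 0.0162) without the pair, from a median of 0.613 TPM in Taar5+ and 6.76 TPM in controls. Pcdh7 and Pcdh9 had log2 fold changes of −1.87 and −1.63 (limma adjusted p = 0.302 and 0.279) and did not pass in either fit. Pcdh9 had a median of 13.4 TPM in Taar5+ and 40.7 TPM in controls.

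**Figure D4:**
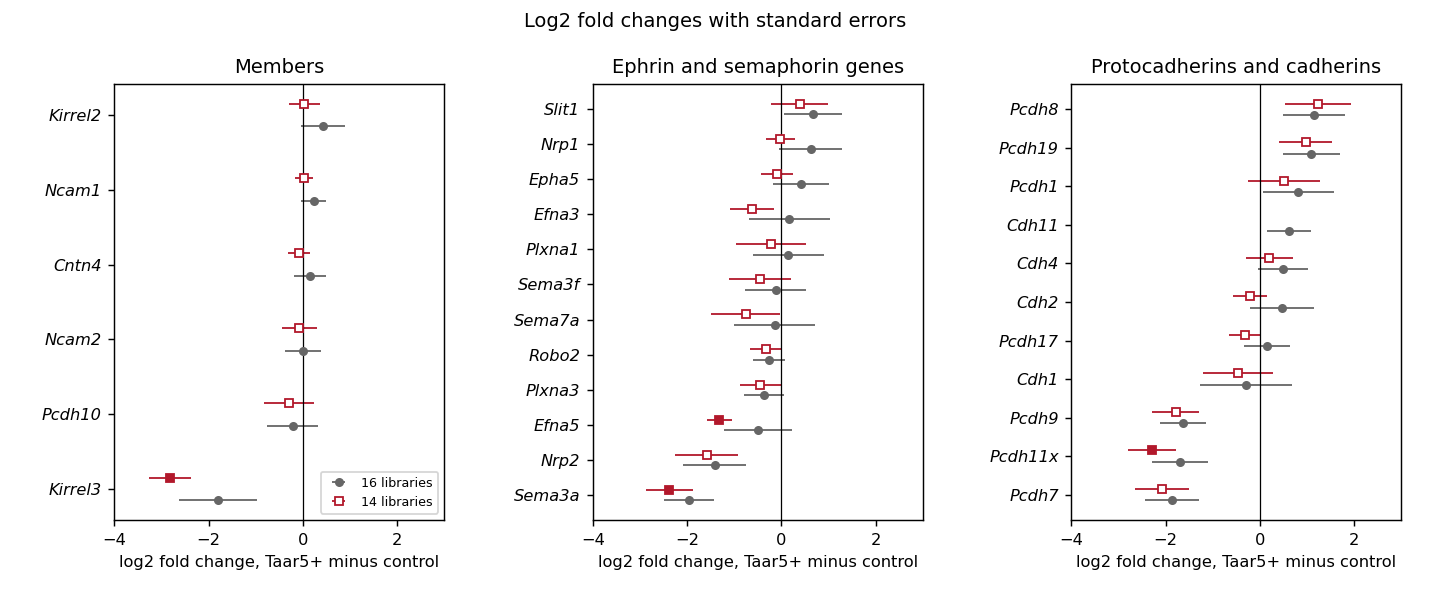
Log2 fold changes, Taar5+ minus control, with standard errors for the 6 members, the tested ephrin and semaphorin genes and the tested protocadherins and cadherins. Gray circles are fits of 16 libraries, red squares fits of 14 libraries without control replicate 2 and Taar5+ replicate 5, and filled squares passed an adjusted p of 0.05 in that fit: Kirrel3 (−2.81), Sema3a (−2.38), Pcdh11x (−2.28) and Efna5 (−1.32).

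Of 13 tested partners and modifiers, Wasf1, an actin regulator of the WAVE complex that Pcdh10 is known to recruit, was 1.68 (SE 0.59, limma adjusted p = 0.389), with medians of 12.6 TPM in Taar5+ and 5.04 TPM in controls. Nckap1 of the same complex was 1.19 and Ptprz1, a phosphatase that binds contactins, −1.03, and neither passed. The immunoglobulin superfamily relatives gave 0 calls among 15 tested in either fit. The smallest p values there were those of Alcam (−1.37, limma adjusted p = 0.778), Nphs1 (0.75) and Cadm3 (−0.70). The 7 tested genes of olfactory transduction gave 0 calls in either fit, with Cnga4 at −0.53, Omp at 0.38 and Adcy3 at 0.38.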

How the data were processed

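RNA of sorted cells was made into Smart-seq2 libraries, and the authors deposited 1 table of TPM values for 18 libraries. Per the study's methods, reads were mapped to mm10 with HISAT2 (2.1.0) and quantified with Cufflinks (2.2.1). The submitters' notes also list Trimmomatic (0.36) and DESeq2. The TPM step is not given in the sources used here. TPM values are not counts, so no count test was run. Control replicate 2 repeated replicate 1 for 13 Taar genes, and these were set as missing.

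Log2(TPM + 1) was fitted with limma (3.58.1, R 4.3.3; mean-variance trend, 7 Taar5+ against 9 controls, no covariates) for genes that reached 1 TPM in 7 or more of 16 libraries. P values were adjusted by Benjamini-Hochberg, with 0.05 as the threshold. The fit was also run on simulated log2 values with a normal spread. They held no library like control replicate 2, so that run says nothing of the effect of such a library. Correlations used exact two-sided permutation of pairings. Alternatives covered the pseudocount, filter, scaling, array weights, samples and left-out libraries. Replicate numbers are not known to be separate animals, so p-values measure the spread between these libraries, which may be technical. The labels give no batch or date.

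The 6 genes and the lists were chosen with earlier results of these data known. Named genes are the 6, every related gene past the threshold or the 3 of each list with the smallest p, and genes needed beside a member. Of the listed genes, Nectin1, Nectin3, Gfy and Hbb-bs had no row. Positions are from GENCODE (GRCm38), and promoter windows from RefSeq (GRCm38.p6).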

Additional observations from a re-analysis of the deposited data

Results flagged for a closer look

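In 12 groups checked (6 genes in the Taar5+ libraries and in the Taar5-line controls), 4 values lay far from the rest of their group on the log2(TPM + 1) scale. All 4 were values of control replicate 2. Kirrel2 was 60.7 TPM there, Kirrel3 was listed at 0 TPM, Cntn4 was 118 TPM and Ncam1 was 144 TPM. The criterion was Dixon's, and chance alone marks about 1 in 20 groups. The 4 genes share 1 library, in which 639 of 3204 abundant genes were also listed at 0.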

How the results depend on the processing

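Kirrel3 was lower in Taar5+ in 28 of 28 alternatives, with limma adjusted p from 0.000125 to 0.995. The alternatives refit largely the same libraries, so their shared sign is not separate evidence. Unadjusted p by limma was under 0.05 in 14 of the 28. Kirrel3 passed in 3 alternatives, at −2.45 without control replicate 2, −2.18 with array weights and −2.81 without control replicate 2 and Taar5+ replicate 5. The last was chosen after seeing the data. Leaving out 1 library at a time gave −2.45 to −1.39 for Kirrel3, −0.12 to 0.28 for Cntn4, −0.14 to 0.13 for Ncam2, −0.42 to 0.081 for Pcdh10, 0.063 to 0.64 for Kirrel2 and 0.037 to 0.35 for Ncam1. The lowest values of Kirrel2 and Ncam1 came without control replicate 2. The number of genes called ran from 16 to 148, of members from 0 to 1 and of related genes from 0 to 1. The 148 calls, of 12460 genes tested, came without control replicate 2, and 66, of 11968, came without Taar5+ replicate 5. Array weights called 1329 of 12502 genes, with 1 of 6 members and 8 of 58 related genes. Quantile normalization called 109 of 12502 genes. Without both libraries 337 of 11915 genes were called, or 2.83%, with 1 of 6 members and 3 of 57 related genes. A replicate block gave 12 calls, with Kirrel2 at 0.62 (unadjusted p by limma 0.0498, adjusted 0.560). The cause was not tested.

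The sign of values that never passed also turned. Ncam2 was −0.19 with the Taar6-line control added, −0.053 with the replicate block, −0.0092 with TPM rescaled without receptor genes, −0.27 with scaling to mature OSN markers and −0.074 without both libraries. Cntn4 was −0.14 with scaling to mature OSN markers and −0.080 without both libraries. Ncam1 was −0.055 with scaling to mature OSN markers, which moved the median of all genes to −0.17. Pcdh10 was 0.12 with array weights. The correlation of Kirrel2 with Kirrel3 was −0.0043 in Taar5+ and −0.14 in controls without the 2 libraries farthest from the median. Same-numbered libraries had correlated deviations (r over 0.1) in 5 of 7 pairs, and 3 of 7 correlated best with their own number. The labels do not say whether same-numbered libraries share mice, so the main fit used no pairs. Only the replicate block treated the numbers as pairs. Depth is unknown, so values near 0 have no counting error.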

Other observations

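Genes with the most similar pattern to each of the 6 over the 16 Taar5-line libraries were found by Spearman's rho of TPM among the 12501 other tested genes. They are given as a description only, since all genes of a library share its depth and composition. For Kirrel2 they were Camk2d (0.929), Mapk4 (0.921) and Kcnab2 (0.912). For Kirrel3 they were Vps4b (0.938) and the odorant receptor genes Olfr655 (0.911) and Olfr1436 (0.906). Olfr655 had a median of 0 TPM in Taar5+ and 23.3 TPM in controls, and Vps4b had 47.6 and 63.3 TPM. For Pcdh10 they were Tusc3 (0.897), Rnft2 (0.870) and Tet3 (0.865), and for Cntn4 they were Fstl5 (0.959), Serinc1 (0.935) and Trim2 (0.921). For Ncam1 they were Arhgef38 (0.920), Hs3st5 (0.900) and E230016M11Rik (0.898), and for Ncam2 they were Mapkapk5 (0.900), Gm960 (0.900) and Phactr4 (0.876).

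Genes beside the 6 on their chromosomes differed widely in level. Aplp1, which encodes an amyloid precursor-like protein and lies 2.0 kb from Kirrel2, had a median of 589 TPM in Taar5+ and 545 TPM in controls. St3gal4, a sialyltransferase gene 9.86 kb from Kirrel3, had 73.4 and 98.4 TPM. The genes beside Cntn4, Gm19757 and Il5ra, had medians of 0.0519 and 0 TPM in Taar5+ and 0 TPM in controls.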
